A study of Homo sapiens with 12 samples.

Results

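Integrin, laminin and collagen genes were described across the drug arms of a PolyA RNA-seq study of C4.2B, a castration-resistant human prostate cancer cell line. Members were the gene symbols of the count files that name a collagen chain, a laminin alpha, beta or gamma chain, or an integrin alpha or beta chain. The rule found 81 of 23228 symbols, made up of 43 collagen, 12 laminin, 18 integrin alpha and 8 integrin beta genes. There were 12 libraries in 4 arms of 3 replicates. DMSO cells received vehicle. GDC cells received GDC-0941 at 0.5 µM, which inhibits PI3K isoforms, GSK cells received GSK126 at 5 µM, which inhibits the histone methyltransferase EZH2, and COMBO cells received both. Before 24 h of treatment of every arm, under 10% charcoal-stripped serum, the GSK and COMBO cells had 6 days of GSK126. Each arm therefore stands for a single cell line in culture, and the p-values measure the spread between plates.

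Integrins are receptors of the cell surface in which an alpha and a beta chain pair and bind matrix proteins outside the cell. Laminins, trimers of an alpha, a beta and a gamma chain, and the network-forming type IV collagens are the core of basement membranes, whereas fibrillar collagens, such as types I, III and V, form fibres of connective tissue. In the normal prostate, basal epithelial cells anchor to the basement membrane through hemidesmosomes, which hold the integrin of ITGA6 and ITGB4 and the transmembrane collagen of COL17A1 and bind a laminin with the chains of LAMA3 and LAMB3.

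Counts in genes were 8785218 to 44437751 per library, and the deepest was DMSO C. Luminal prostate markers were present, with all 10 of 10 tested and a summed level of 4029 to 4198 CPM (counts per 1000000 of the TMM-scaled library size) in DMSO and 6464 to 6950 CPM in COMBO. None of the 4 basal markers (KRT5, KRT14, TP63 and KRT15) had enough counts for a test. Their summed level was 0.0962 to 0.211 CPM in DMSO, at most 0.177 in GDC, 0.553 to 0.932 in GSK and 0.437 to 0.843 in COMBO, KRT15 was above DMSO in each GSK and COMBO library, and KRT5 and TP63 were at or under 3 counts in each library. Reads that the counting assigned to no gene feature were 13.7% to 14.6% of each file in DMSO and 15.2% to 15.7% in GDC. They were 18.5% to 18.9% in GSK and 21.0% to 23.0% in COMBO. The part of either in the members' values was not tested. Of the 81 members, 52 had enough counts for a test (25 collagen, 9 laminin, 12 integrin alpha and 6 integrin beta genes) out of 14189 tested genes, and the other 29 are given by their counts.

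In all, the members took 1537 ± 27.5 (DMSO), 1796 ± 49.8 (GDC), 2837 ± 16.7 (GSK) and 3298 ± 135 (COMBO) of each 1000000 gene counts (SD, n = 3). On this scale collagen genes took 228 ± 10.6, 324 ± 18.1, 711 ± 20.5 and 982 ± 112. Laminin genes took 507 ± 4.08, 603 ± 26.5, 958 ± 19.3 and 1097 ± 68.5 in the same order. Integrin beta genes took 480.3 ± 16.4, 516 ± 6.35, 757 ± 13.2 and 774 ± 32.0, and integrin alpha genes 323 ± 21.0, 353 ± 6.10, 411 ± 5.68 and 444 ± 10.8. In each family the 3 COMBO libraries lay above the 3 DMSO libraries. Abundant members carried much of these sums. ITGB1 held 84.9% of the integrin beta counts in DMSO and LAMC1 46.5% of the laminin counts, while the leading collagen gene was COL6A1 in DMSO (37.0%) and COL12A1 in COMBO (33.2%). These are bulk RNA values, in which fewer or more cells with a transcript and less or more of it per cell cannot be told apart.

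**Figure D1:**
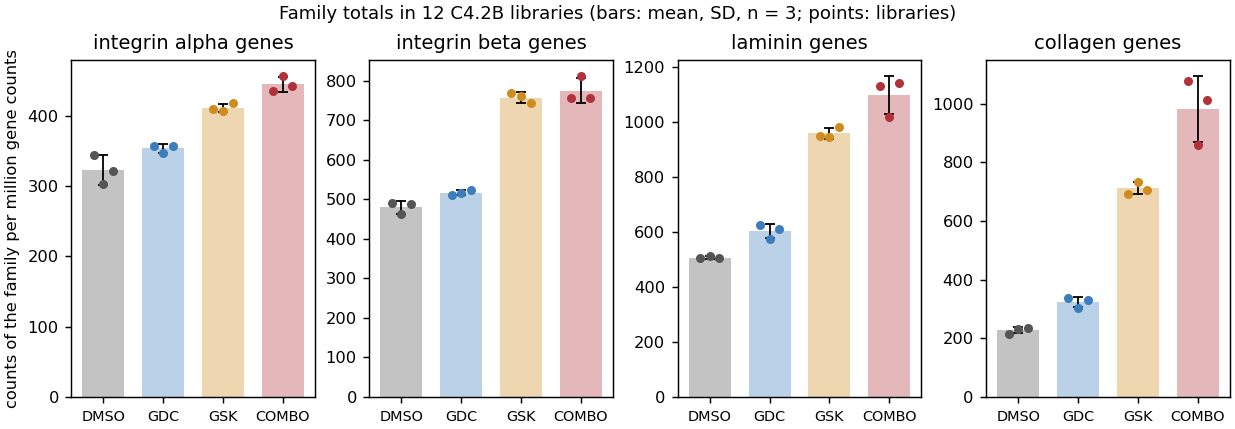
Counts of each gene family per 1000000 gene counts (vertical axes, from 0) in the 4 arms; bars are means, error bars SD (n = 3) and points single libraries. Collagen genes go from 228 in DMSO to 982 in COMBO and laminin genes from 507 to 1097.

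The question of GSK against DMSO was which members differ after EZH2 inhibition. Of the 52 tested members, 44 rose and 2 fell in GSK against DMSO (edgeR quasi-likelihood test, adjusted p under 0.05), where 40.0% of all tested genes were called higher and 35.7% lower. By family, 24 of 25 collagen genes, 6 of 6 integrin beta genes, 6 of 9 laminin genes and 8 of 12 integrin alpha genes rose, and ITGA2 and ITGAE fell. The median log2 fold change was 1.51 for collagens, 1.45 for integrin beta, 0.72 for laminins and 0.60 for integrin alpha genes, beside 0.058 over all tested genes. Of the tested members 14 did not reach the level cut of the filter in every DMSO library. They were COL2A1, COL3A1, COL4A3, COL4A4, COL8A2, COL11A2, COL17A1, COL23A1, COL24A1, COL27A1, LAMA4, ITGA7, ITGA11 and ITGB8. Libraries of other arms let them be tested, so their fold changes and adjusted p-values, here and below, are given as description. Among the 38 members above that cut in DMSO itself, 30 were called higher and 2 lower, and of all 12573 such genes 36.0% were called higher and 40.2% lower. Over these members the medians were 1.26 (15 collagens), 0.95 (5 integrin beta), 0.66 (8 laminins) and 0.43 (10 integrin alpha genes). With library totals in place of TMM, which moved the median of all genes by 0.15 in GSK and 0.21 in COMBO, 47 members were called higher and 0 lower in GSK, where 49.2% of all genes were called higher and 27.7% lower on that scaling.

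**Figure D2:**
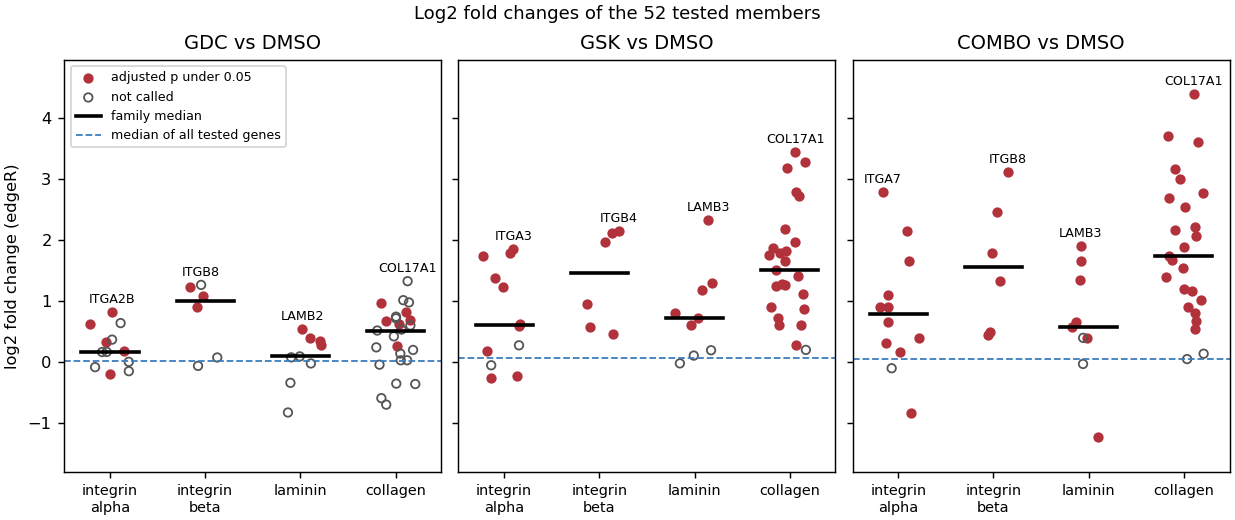
Log2 fold change (vertical axis) of the 52 tested members in GDC, GSK and COMBO against DMSO, by family; filled points passed an adjusted p of 0.05, open points did not, black bars are family medians and the dashed line is the median of all tested genes. In GSK the collagen median is 1.51 and in GDC 0.51.

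COL12A1, a fibril-associated collagen (chr6:75084326-75206267, hg38, minus strand), had the largest log2 fold change in GSK and in COMBO among members above 10 CPM in DMSO. It stood at 21.9, 24.3 and 23.1 CPM (DMSO), 45.1, 42.0 and 49.7 (GDC), 199, 189 and 243 (GSK) and 308, 272 and 330.3 (COMBO). No arm overlapped another, and every COMBO library was above every GSK library. Against DMSO the log2 fold change of GDC was 0.97 (SE 0.10 with adjusted p = 4.57e-07), that of GSK 3.18 (SE 0.095 with adjusted p = 3.48e-16) and that of COMBO 3.71 (SE 0.095 with adjusted p = 6.01e-18), or 1.96-fold, 9.04-fold and 13.0-fold. Per kilobase of transcript it went from 1.97 CPM in DMSO to 25.9 in COMBO, the level of COL4A5 in that arm.

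COL17A1, the hemidesmosome collagen (chr10:104031286-104085880, minus strand), was near the detection limit in DMSO. It was under the level cut there and was tested through libraries of other arms. It measured 0.105, 0.221 and 0.168 CPM (DMSO), 0.177, 0.739 and 0.335 (GDC), 1.54, 2.37 and 1.86 (GSK) and 4.41, 3.20 and 3.86 (COMBO). The GSK and COMBO libraries were all above DMSO, with a log2 fold change of 3.44 (SE 0.40 with adjusted p = 1.82e-07) and 4.39 (SE 0.33 with adjusted p = 1.47e-10). GDC overlapped DMSO and was not past the threshold (1.32, adjusted p = 0.0581). COMBO exceeded GSK by 0.95 (SE 0.24 with adjusted p = 0.00287).

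The RefSeq sequences upstream of these genes differ in base composition, and those of COL12A1 and COL17A1 are shown as the members with the largest folds in COMBO. The 250 bases before the RefSeq start of each gene (GRCh38.p14, the gene's own strand, 5′ to 3′) are printed with every CG in capitals. COL12A1 (chr6:75206054-75206303) holds 21 CG and COL17A1 (chr10:104085881-104086130) holds 1.
COL12A1 upstream: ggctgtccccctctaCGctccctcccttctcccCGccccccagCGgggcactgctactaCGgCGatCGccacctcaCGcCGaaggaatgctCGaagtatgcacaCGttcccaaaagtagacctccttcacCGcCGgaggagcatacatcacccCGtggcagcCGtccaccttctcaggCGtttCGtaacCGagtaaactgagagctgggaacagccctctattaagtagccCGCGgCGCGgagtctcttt
COL17A1 upstream: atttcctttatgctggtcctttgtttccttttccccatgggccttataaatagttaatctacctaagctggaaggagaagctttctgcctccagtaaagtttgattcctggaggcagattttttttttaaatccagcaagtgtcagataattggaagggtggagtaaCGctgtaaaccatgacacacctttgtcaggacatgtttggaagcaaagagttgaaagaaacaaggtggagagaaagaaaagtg

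Over the 57 members with such a window (250 bases before and 50 after the start, 1 per gene, among 27305 in all), the median count of CG was 17, beside 14 over all windows. It was 22 (range 1 to 45) in 22 tested members that were at least 2-fold higher in GSK, 19 (range 4 to 46) in the other 17 tested members and 13 (range 0 to 45) in 18 untested members. On either strand the GC box GGGCGG was found in 32 members (56.1%, against 44.6% of all windows) and the TATA box TATAAA in 6 (10.53% against 11.95%). The FOXO core TGTTTAC was found in 0 members, against 3.41% of all windows, which says only that these letters are not in these windows. These are descriptions of letters and not of bound factors.

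**Figure D3:**
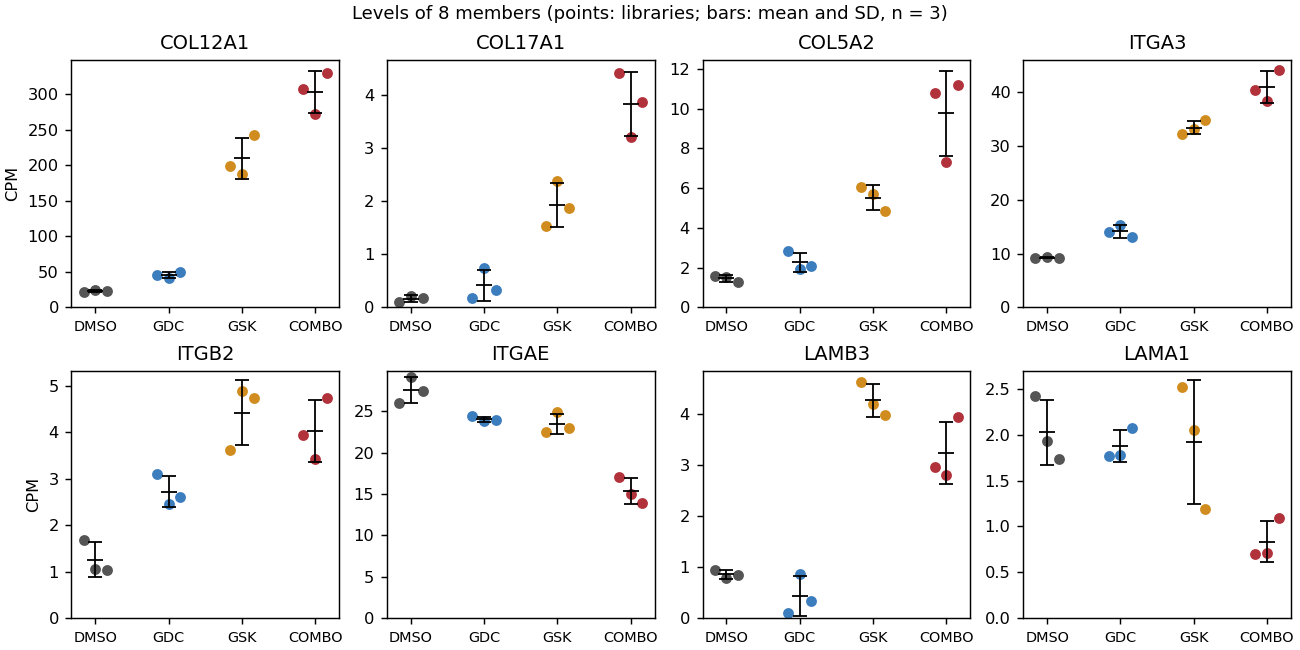
CPM (vertical axes, from 0) of 8 members in each library; points are libraries, and horizontal marks with error bars are mean and SD (n = 3). COL12A1, COL17A1, COL5A2 and ITGA3 are highest in COMBO, whereas ITGAE and LAMA1 are lowest there.

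The type IV collagens, which form the network of basement membranes, are encoded as neighbours that are read in opposite directions from a shared stretch. COL4A5 and COL4A6 differed in level and in change, and COL4A1 and COL4A2 in level, while COL4A3 and COL4A4 were both low and rose after GSK126. COL4A5 (chrX:108439838-108697545) was the most abundant, at 53.6, 49.9 and 55.2 CPM (DMSO), 84.7, 79.8 and 90.7 (GDC), 121, 131 and 126 (GSK) and 186, 155 and 165 (COMBO). None of these arms overlapped, and relative to DMSO the differences on the log2 scale were 0.68 (SE 0.069), 1.25 (SE 0.068) and 1.67 (SE 0.067), with adjusted p = 3.13e-07, 2.04e-12 and 5.26e-15. Its neighbour COL4A6, 379 bases away, was at 4.74, 2.60 and 2.86 CPM in DMSO and 5.75, 5.90 and 5.97 in COMBO, a log2 fold change of 0.91 (SE 0.16 with adjusted p = 3.21e-05). The GSK libraries of COL4A6 overlapped DMSO, and its call in GSK (0.61, adjusted p = 0.00517) was lost without DMSO C (0.45, adjusted p = 0.0645).

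COL4A3 and COL4A4, which start 418 bases apart, were both low in DMSO and higher after GSK126. Both were under the level cut in DMSO and were tested through libraries of other arms. COL4A3 measured 0.632, 0.664 and 0.385 CPM (DMSO), 0.707, 0.862 and 0.872 (GDC), 1.98, 2.77 and 2.03 (GSK) and 5.81, 3.95 and 3.86 (COMBO). COL4A4 measured 0.737, 0.0553 and 0.457 (DMSO), 0.530, 0.678 and 0.469 (GDC), 3.74, 3.16 and 4.66 (GSK) and 4.70, 4.35 and 5.61 (COMBO). In GSK and COMBO all libraries of both genes were above DMSO. The log2 fold change in COMBO was 3.17 for COL4A3 (SE 0.25 with adjusted p = 4.35e-10) and 3.61 for COL4A4 (SE 0.30 with adjusted p = 7.15e-10), and in GSK it was 2.18 and 3.28. COMBO was above GSK for COL4A3 (0.99, SE 0.22, adjusted p = 0.000991), while for COL4A4 the difference was 0.33 (SE 0.22 with adjusted p = 0.244).

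COL4A1 and COL4A2 encode the chains found in nearly all basement membranes, and only COL4A2 was detected at a level that could be tested. COL4A2 stood at 6.95, 7.41 and 6.69 CPM in DMSO and 6.44, 6.79 and 8.59 in COMBO, with overlap in every comparison and log2 fold changes of -0.046 in GDC, 0.20 in GSK and 0.045 in COMBO (edgeR adjusted p = 0.171 or more). COL4A1 had 1 count over the DMSO libraries, 4 over GDC, 1 over GSK and 8 over COMBO, where a count of 0 in an arm would allow 0.0434 to 0.0894 CPM. Its ratio of pooled counts in COMBO to DMSO was 10.3 (95% counting interval 1.39 to 459), from a single DMSO count. COL4A2 had the smallest log2 fold change of the 25 tested collagens in GSK and was the single one not called there.

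To show the shared stretches, the whole gap between the RefSeq starts of COL4A1 and COL4A2 (chr13:110307158-110307283, plus strand, 126 bases, 20 CG), and the 250 bases before COL4A3 (chr2:227164374-227164623, plus strand, 17 CG) and COL4A5 (chrX:108439588-108439837, plus strand, 8 CG) are given with CG in capitals. The first stretch is a whole gap, while the others are parts of gaps of 418 bases (COL4A3) and 379 bases (COL4A5). Their lengths and CG counts are therefore not compared.
COL4A1 to COL4A2 gap: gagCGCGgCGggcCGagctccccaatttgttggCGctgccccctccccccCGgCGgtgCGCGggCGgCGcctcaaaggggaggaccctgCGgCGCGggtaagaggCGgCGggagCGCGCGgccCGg
COL4A3 upstream: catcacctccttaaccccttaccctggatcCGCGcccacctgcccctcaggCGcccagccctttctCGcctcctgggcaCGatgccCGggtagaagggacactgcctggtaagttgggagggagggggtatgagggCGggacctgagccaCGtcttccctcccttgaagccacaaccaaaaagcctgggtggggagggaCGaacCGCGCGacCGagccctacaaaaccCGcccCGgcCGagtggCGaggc
COL4A5 upstream: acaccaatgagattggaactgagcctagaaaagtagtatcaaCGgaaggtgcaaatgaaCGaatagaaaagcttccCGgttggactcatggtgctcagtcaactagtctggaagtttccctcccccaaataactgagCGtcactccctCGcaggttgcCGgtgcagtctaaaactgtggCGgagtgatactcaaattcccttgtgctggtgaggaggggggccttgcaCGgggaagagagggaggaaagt

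Fibrillar and beaded-filament collagens also had chains near the floor. COL1A1, a chain of type I collagen, measured 10.1, 10.1 and 11.3 CPM in DMSO, 29.7, 36.8 and 24.4 in GSK and 45.9, 27.5 and 34.2 in COMBO. It rose by 1.51 in GSK (SE 0.17 with adjusted p = 1.07e-07) and 1.74 in COMBO (SE 0.16 with adjusted p = 3.44e-09), with no overlap with DMSO, and was at 0.14 in GDC (adjusted p = 0.602). COL1A2, the other chain of type I collagen, had 1 count over all 12 libraries. COL5A1 and COL5A2, of type V collagen, rose by 1.26 and 1.96 in GSK and by 1.54 and 2.77 in COMBO. COL5A2 went from 1.58, 1.55 and 1.28 CPM in DMSO to 10.8, 7.32 and 11.2 in COMBO, above the GSK libraries of 6.04, 5.69 and 4.83 (0.81 above GSK, SE 0.17, adjusted p = 0.000595). COL3A1 rose by 1.75 in GSK and 2.22 in COMBO but was below 2 CPM on average in each arm. COL6A1 and COL6A2, of beaded-filament type VI collagen, rose by 0.90 and 1.66 in GSK and by 1.19 and 2.16 in COMBO, while COL6A3 had 1, 4, 1 and 12 counts over the libraries of DMSO, GDC, GSK and COMBO. COL6A1 was the most abundant collagen per kilobase in each arm, at 21.1 ± 1.72 CPM per kilobase in DMSO and 48.9 ± 7.34 in COMBO (SD, n = 3).

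The rest of the tested collagens were also higher in GSK. COL16A1, another fibril-associated collagen, rose from 0.842, 1.38 and 1.20 CPM in DMSO to 5.82, 10.2 and 8.39 in GSK (2.78, SE 0.23, adjusted p = 1.10e-09), and COL27A1, a fibrillar collagen, from 0.421, 0.0553 and 0.337 to 1.87, 1.90 and 1.78 (2.73, SE 0.43, adjusted p = 1.03e-05). COL2A1, COL7A1, COL8A2, COL9A2, COL9A3, COL11A2, COL13A1, COL18A1, COL23A1 and COL24A1 were called higher in GSK with log2 fold changes from 0.28 for COL9A3 to 1.87 for COL8A2. In COMBO all of these 10 but COL2A1 (0.13, adjusted p = 0.736) were called higher. COL18A1 and COL9A3 overlap exons of SLC19A1 and TCFL5, respectively, on the other strand, so part of their counts is uncertain. The call of COL23A1 in GSK (1.11) was lost without GSK A (0.78), that of COL9A3 without GSK B (0.19) or with no filter (0.19), and that of COL2A1 (0.87) in 7 of 17 alternatives. The part of stromal cells in these values was not tested, and their markers stood as follows. FAP, DCN and LUM were at 0 CPM in each DMSO and GDC library and at most 0.355 CPM on average in GSK or COMBO, where LUM in GSK and DCN and LUM in COMBO were above DMSO in each library. Of the 7 markers 3 were tested. ACTA2 was higher in GSK (0.61, adjusted p = 0.00450) and lower in GDC (-0.65, adjusted p = 0.0140) and COMBO (-0.44, adjusted p = 0.0381), PDGFRB was higher in GDC (1.06, adjusted p = 0.000570), and THY1 was called in no arm. The summed level of the 7 was 5.68 to 8.02 CPM in DMSO, 6.53 to 7.07 in GDC, 10.4 to 11.6 in GSK and 5.68 to 7.06 in COMBO.

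**Figure D4:**
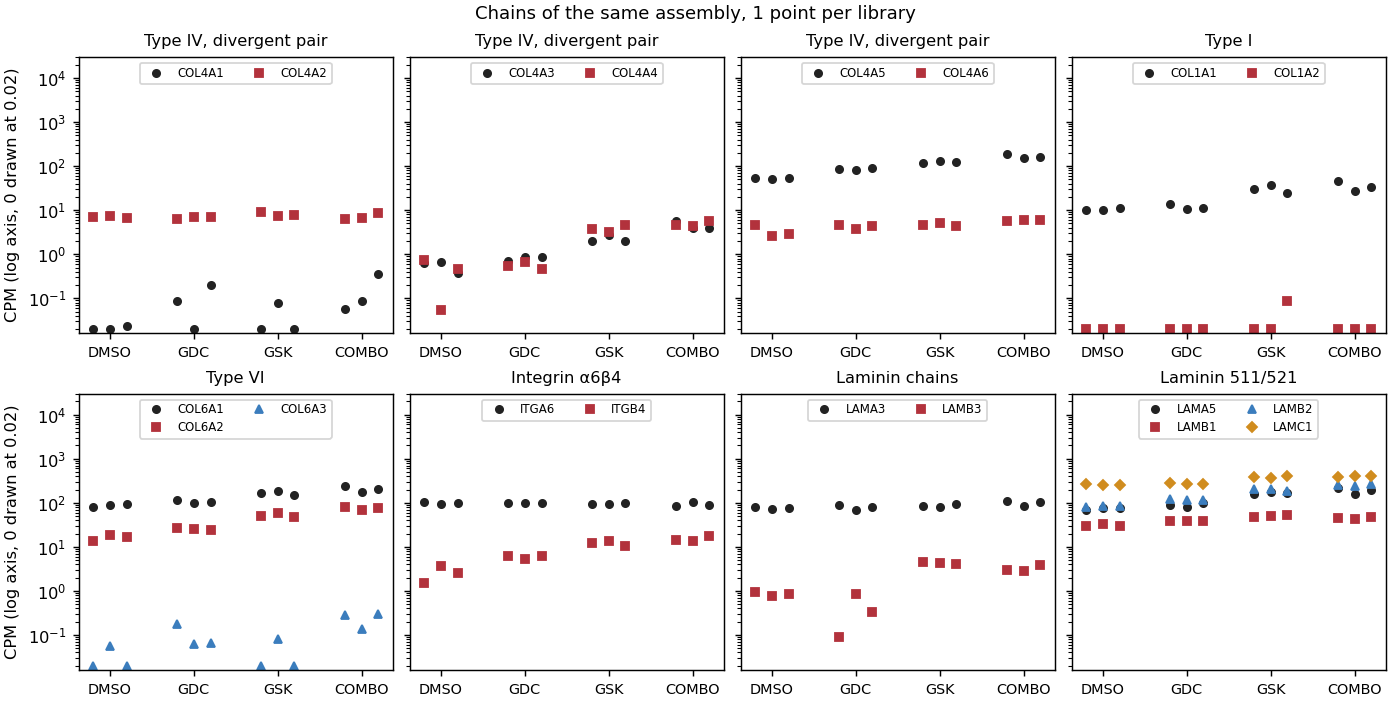
CPM (log axis, with 0 drawn at 0.02) of chains that belong to the same protein or neighbouring pair, 1 point per library in each arm. COL4A1, COL1A2 and COL6A3 lie near the floor in every arm while their partners are measured at 6.44 CPM or more (COL4A2, COL1A1, COL6A1 and COL6A2).

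Among laminins, the chains of the widespread basement membrane laminins rose, and LAMA3 and LAMB3 differed in level and in change. LAMB2 (chr3:49121114-49133118) was at 78.3, 82.9 and 83.1 CPM (DMSO), 122, 115 and 118 (GDC), 207, 206 and 189 (GSK) and 255, 243 and 271 (COMBO). The arms did not overlap, with log2 fold changes against DMSO of 0.53 (SE 0.054 with adjusted p = 3.17e-07), 1.30 (SE 0.054 with adjusted p = 3.28e-14) and 1.65 (SE 0.053 with adjusted p = 1.79e-16). Its alpha chain partner LAMA5 rose by 1.17 in GSK and 1.34 in COMBO (adjusted p = 2.67e-10 and 1.46e-11), from 68.5, 77.6 and 74.7 CPM in DMSO to 213, 156 and 193 in COMBO. LAMC1, the gamma chain and the most abundant laminin gene at 32.2 ± 1.02 CPM per kilobase in DMSO, rose by 0.60 and 0.66 (SE 0.047 each), and LAMB1 by 0.72 and 0.57. LAMA4, a low alpha chain at 0.947, 0.940 and 0.650 CPM in DMSO, was called higher in GSK (0.81, SE 0.31, adjusted p = 0.0237), which was lost in 6 of 18 alternatives. LAMB2 has the named pseudogene LAMB2P1, and LAMA5 and LAMB1 overlap exons of ADRM1 and DLD, respectively, on the other strand, so part of their counts is uncertain.

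Of the hemidesmosome laminin chains, LAMA3 was abundant and LAMB3 was low. LAMA3 stood at 78.5, 71.9 and 76.8 CPM in DMSO and 108, 84.3 and 105 in COMBO, a log2 fold change of 0.38 (SE 0.090 with adjusted p = 0.000597), and in GSK it was 0.19 (adjusted p = 0.0716). LAMB3 measured 0.947, 0.774 and 0.842 CPM (DMSO), 0.0884, 0.862 and 0.335 (GDC), 4.62, 4.19 and 3.98 (GSK) and 2.96, 2.80 and 3.93 (COMBO). Both GSK126 arms were above DMSO, by 2.33 in GSK (SE 0.27 with adjusted p = 1.71e-07) and 1.91 in COMBO (SE 0.26 with adjusted p = 1.44e-06). Side by side, the per kilobase levels in COMBO were 9.30 ± 1.22 CPM for LAMA3 and 0.805 ± 0.153 for LAMB3 (SD, n = 3).

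LAMA1 and LAMC3 departed from the other laminins. LAMA1, an alpha chain of embryonic basement membranes, was at 2.42, 1.94 and 1.73 CPM (DMSO), 1.77, 1.79 and 2.08 (GDC), 2.53, 2.06 and 1.19 (GSK) and 0.697, 0.710 and 1.09 (COMBO). It fell in COMBO by 1.24 on the log2 scale (SE 0.27 with adjusted p = 0.000288), with every COMBO library below every library of the other arms, whereas GDC and GSK overlapped DMSO (-0.027 and -0.025). LAMC3, a gamma chain, rose in GDC (0.39, SE 0.076, adjusted p = 0.000371), from 20.1, 24.2 and 22.8 to 31.0, 28.8 and 29.6 CPM, and in COMBO stood at 23.2, 21.0 and 22.4 CPM. COMBO was below GDC for LAMC3 by 0.43 (SE 0.077 with adjusted p = 4.46e-05).

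Integrin beta chains rose in both GSK126 arms, and the largest folds were in chains with low counts. ITGB1, the common partner of most alpha chains, measured 452, 416 and 444 CPM (DMSO), 448, 461 and 468 (GDC), 611, 602 and 593 (GSK) and 576, 639 and 564 (COMBO). GSK and COMBO did not overlap DMSO, with log2 fold changes of 0.46 (SE 0.047 with adjusted p = 2.27e-08) and 0.44 (SE 0.047 with adjusted p = 2.76e-08). At 117 ± 5.09 CPM per kilobase in DMSO, ITGB1 was the most abundant member, and it has 1 named pseudogene, ITGB1P1. ITGB5, which pairs with ITGAV, rose by 0.57 and 0.48. ITGB4, the hemidesmosome chain (chr17:75721328-75757818), was at 1.47, 3.76 and 2.55 CPM (DMSO), 6.19, 5.17 and 6.10 (GDC), 11.98, 13.5 and 10.51 (GSK) and 14.3, 13.8 and 17.3 (COMBO). All 3 arms were above DMSO, by 1.09 (SE 0.20 with adjusted p = 0.000227), 2.14 (SE 0.18 with adjusted p = 1.68e-09) and 2.46 (SE 0.17 with adjusted p = 3.05e-11).

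Its partner ITGA6 was not called in any comparison. ITGA6 (chr2:172427354-172506459) stood at 105, 93.3 and 98.5 CPM (DMSO), 97.8, 97.2 and 101 (GDC), 94.0, 92.3 and 98.2 (GSK) and 83.0, 101 and 89.9 (COMBO), with overlap in every comparison. In GSK and COMBO the log2 fold changes were -0.056 and -0.11 (SE 0.064 and 0.062, edgeR adjusted p = 0.435 and 0.124). Per kilobase, ITGA6 was at 17.0 ± 0.999 CPM and ITGB4 at 0.440 ± 0.194 in DMSO, and at 15.7 ± 1.60 and 2.57 ± 0.313 in COMBO (SD, n = 3). As a member that was not called, its upstream sequence (chr2:172427086-172427335, plus strand, 8 CG in capitals, RefSeq GRCh38.p14) is shown for comparison with those of COL12A1 and COL17A1.
ITGA6 upstream: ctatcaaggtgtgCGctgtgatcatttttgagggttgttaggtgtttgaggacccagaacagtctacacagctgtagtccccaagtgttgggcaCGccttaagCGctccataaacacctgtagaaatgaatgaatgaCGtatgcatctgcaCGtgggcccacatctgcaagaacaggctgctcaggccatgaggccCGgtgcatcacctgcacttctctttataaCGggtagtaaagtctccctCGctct

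ITGB2, ITGB7 and ITGB8 were low but measurable. ITGB2, a chain known from leukocytes, was at 1.68, 1.05 and 1.03 CPM (DMSO), 3.09, 2.46 and 2.62 (GDC), 3.63, 4.90 and 4.75 (GSK) and 3.95, 3.42 and 4.73 (COMBO), and it rose in each arm (1.23, 1.96 and 1.79). Of the leukocyte markers CD3E was at 0 in every library and PTPRC at 0 in DMSO and GDC, while the summed level of the 5 was 4.95 to 5.75 CPM in DMSO, 7.03 to 9.64 in GSK and 8.17 to 9.87 in COMBO. Only CD68 of the 5 was tested, and it held most of that sum, at 5.31 CPM on average in DMSO, 8.32 in GSK and 8.08 in COMBO. CD68 was called higher in GSK (0.64, adjusted p = 0.000467) and COMBO (0.58, adjusted p = 0.000566). SPI1 and PTPRC were above DMSO in each COMBO library. The part of these markers in the ITGB2 values was not tested. ITGB7 rose by 0.90, 0.95 and 1.33, and overlaps exons of ZNF740 on the other strand. ITGB8 went from 0.105, 0.111 and 0.217 CPM in DMSO to 1.34, 1.60 and 1.75 in COMBO (3.12, SE 0.36, adjusted p = 1.30e-07), above GSK by 0.996 (adjusted p = 0.0150), a difference lost without GSK B (0.73, adjusted p = 0.104) and in DESeq2 (1.01, adjusted p = 0.0955). ITGB6 had 7, 3, 20 and 11 counts over the libraries of DMSO, GDC, GSK and COMBO, a ratio of 5.89 in GSK (2.39 to 16.5). ITGB3 had 2 counts in all.

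Integrin alpha chains were the least uniform family. ITGA3, a laminin receptor chain (chr17:50055968-50090481), was at 9.16, 9.40 and 9.19 CPM (DMSO), 14.0, 15.4 and 13.0 (GDC), 32.3, 33.2 and 34.7 (GSK) and 40.4, 38.3 and 44.2 (COMBO). The arms did not overlap, with log2 fold changes of 0.61 (SE 0.091 with adjusted p = 2.59e-05), 1.85 (SE 0.083 with adjusted p = 1.06e-13) and 2.14 (SE 0.078 with adjusted p = 1.29e-15). ITGA5, the fibronectin receptor chain, rose in GSK by 0.61 (SE 0.070 with adjusted p = 1.25e-07), from 38.6, 38.1 and 33.4 to 58.9, 53.5 and 54.3 CPM, and in COMBO by 0.39. ITGAV had the highest level per kilobase of the alpha chains in DMSO (18.1 ± 2.28 CPM), within its spread of ITGA6, and was at 143, 110.7 and 129 CPM in DMSO and 152, 167 and 153 in COMBO (0.31, SE 0.065, adjusted p = 0.000178). Its calls in GDC and GSK (0.17 in each) were lost in 14 and 12 of 19 alternatives.

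ITGA2 and ITGAE were called lower in GSK. ITGA2, a collagen receptor chain, was at 41.9, 38.1 and 39.1 CPM (DMSO), 51.6, 46.8 and 49.5 (GDC), 30.3, 31.4 and 36.4 (GSK) and 44.3, 45.0 and 42.7 (COMBO). It was higher in GDC (0.32, SE 0.065, adjusted p = 0.000597) and lower in GSK (-0.27, SE 0.070, adjusted p = 0.00183), and every COMBO library was above every GSK library (0.43, SE 0.069, adjusted p = 4.46e-05). With library totals the GSK value was -0.11 (adjusted p = 0.142). ITGAE, the chain that pairs with ITGB7 to bind E-cadherin (chr17:3714628-3801188), stood at 26.0, 29.1 and 27.5 CPM (DMSO), 24.4, 23.8 and 23.9 (GDC), 22.5, 24.9 and 23.0 (GSK) and 17.0, 15.0 and 13.9 (COMBO). COMBO was below every other library, by 0.85 on the log2 scale against DMSO (-0.85, SE 0.076, adjusted p = 2.56e-09), and the smaller calls in GDC (-0.20) and GSK (-0.23) were lost with library totals (-0.17 and -0.080), the one in GDC also without DMSO B (-0.20, adjusted p = 0.0625).

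ITGA7, ITGA2B, ITGA1, ITGA9, ITGA10 and ITGA11 were at 4.99 CPM or less in every library. ITGA7 rose from 0.105, 0.221 and 0.746 CPM in DMSO to 4.99, 2.31 and 3.42 in COMBO (2.78, SE 0.36, adjusted p = 4.59e-07), but its exons overlap those of BLOC1S1 and METTL7B on the other strand, and whether reads were assigned by strand is not given in the sources used here. ITGA2B, ITGA10 and ITGA11 rose by 1.37, 1.23 and 1.74 in GSK, and ITGA1, which overlaps exons of PELO on the same strand, by 0.58, a call lost in 5 of 19 alternatives. ITGA9 had log2 fold changes of 0.27 in GSK and 0.66 in COMBO (adjusted p = 0.429 and 0.0247), the second lost in 4 of 19.

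GDC alone gave smaller changes. Of the 52 tested members, 17 rose and 1, ITGAE, fell in GDC against DMSO, where 20.0% of all tested genes were called higher and 20.0% lower. Among the 38 members above the level cut in DMSO the counts were also 17 and 1 (21.0% and 22.6% of such genes). The median log2 fold change was 0.30 over the members, beside 0.016 over all genes. The largest values among the called members were 1.23 for ITGB2 and 1.09 for ITGB4. The 17 were 6 collagen genes (COL12A1, COL9A2, COL4A5, COL5A2, COL6A2 and COL6A1), 4 laminin genes (LAMB2, LAMC3, LAMB1 and LAMA5), 3 integrin beta genes (ITGB2, ITGB4 and ITGB7) and 4 integrin alpha genes (ITGA2B, ITGA3, ITGA2 and ITGAV). COL6A2 went from 13.4, 18.2 and 16.7 to 27.0, 24.9 and 24.4 CPM (0.62, SE 0.097, adjusted p = 4.41e-05). The calls of COL5A2, COL6A1 and ITGAV were lost in 12, 11 and 14 of 19 alternatives, that of ITGA2B (0.82) in DESeq2 (0.75) and without DMSO C (0.53), and that of LAMA5 (0.28, adjusted p = 0.0171) without DMSO A (0.20), DMSO C (0.26), GDC A (0.24) or GDC C (0.18).

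COMBO against DMSO called 45 of the 52 members higher and 2 lower, LAMA1 and ITGAE, against 43.3% and 39.2% of all tested genes. Of the 38 above the level cut in DMSO, 33 were called higher and 2 lower, where all such genes gave 38.6% and 44.0%. By family 23 of 25 collagens, 6 of 6 integrin beta, 6 of 9 laminin and 10 of 12 integrin alpha genes rose. The median log2 fold changes were 1.74, 1.56, 0.57 and 0.78 in that order, beside 0.054 over all genes, and over the members above the cut in DMSO they were 1.19, 1.33, 0.62 and 0.52.

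**Figure D5:**
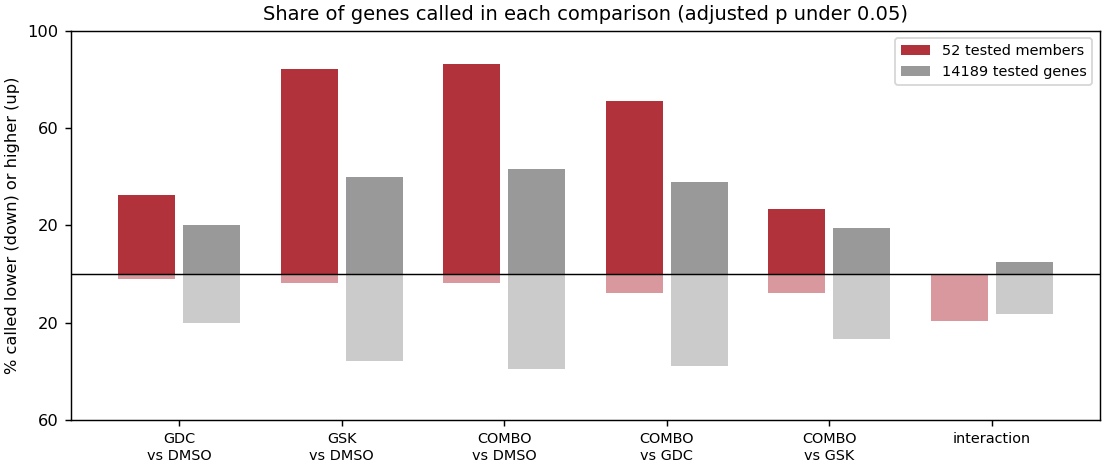
Percent of the 52 tested members and of all 14189 tested genes that were called higher (upward) or lower (downward, paler) in each comparison, edgeR adjusted p under 0.05. In GSK against DMSO 44 members were called higher, where 40.0% of all genes were. In the interaction 0 members were called higher and 10 lower (19.2% of the members). Of all tested genes 4.86% were called higher and 16.5% lower there.

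Adding GSK126 to GDC-0941, which is COMBO against GDC, called 37 members higher and 4 lower (37.9% and 38.0% of all tested genes), and the 4 were LAMA1, ITGAE, LAMC3 and ITGA2. Of the 38 above the level cut in DMSO, 27 were called higher and 4 lower (33.8% and 42.6% of such genes). COL27A1, COL4A4 and COL17A1 stood 3.39, 3.08 and 3.07 higher on the log2 scale, but were tested because of their level in the GSK126 arms. LAMB3, which was above the cut in DMSO, was 2.74 higher. The ITGA2 call (-0.16) was lost in 12 of 19 alternatives and was 0.014 with library totals. Adding GDC-0941 to GSK126, which is COMBO against GSK, called 14 members higher and 4 lower (19.0% and 26.9% of all tested genes), and of the 38 it called 10 and 4 (19.4% and 29.7% of such genes). The 14 were COL4A3, COL17A1, COL5A2, COL12A1, COL6A2, COL4A5, COL18A1, COL6A1, COL9A3, LAMB2, ITGB8, ITGA7, ITGA2 and ITGA3, from 0.26 for COL9A3 to 0.996 for ITGB8. The 4 were LAMA1 (-1.22), COL13A1 (-0.73), ITGAE (-0.61) and ITGA5 (-0.22). Without COMBO A the calls of COL6A1 (0.21), ITGA5 (-0.19) and ITGA7 (0.68) were lost, and so they were without GSK C (COL6A1, 0.21), GSK A (ITGA5, -0.16) and GSK B (ITGA7, 0.93). The COL18A1 call (0.40) was lost without GSK C (0.30), COMBO A (0.25) or COMBO C (0.39), and that of COL9A3 without GSK C (0.19).

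The interaction compared the COMBO change with the changes of GDC and GSK added together on the log2 scale. It was past the threshold for 10 members, all below the sum, and for 0 above it, where 16.5% of all tested genes were called below and 4.86% above. The 10 are a share of 19.2% of the tested members, near that background. ITGB2 had the largest interaction, -1.41 (SE 0.29 with adjusted p = 0.00156), with COMBO at -0.18 against GSK (adjusted p = 0.447), followed by COL13A1 at -1.24 (SE 0.29 with adjusted p = 0.00422) and LAMA1 at -1.19 (SE 0.39 with adjusted p = 0.0332). COL13A1 was at 1.37, 1.38 and 1.59 CPM (DMSO), 2.83, 1.97 and 1.74 (GDC), 3.41, 4.03 and 4.32 (GSK) and 2.73, 2.17 and 2.26 (COMBO). The count of 10 was 6 without DMSO A, 5 without DMSO C, 6 without GSK A or GSK B, and 5, 6 and 5 when GDC A, GDC B or GDC C was left out.

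The 29 members with too few counts for a test included 18 collagen, 3 laminin, 6 integrin alpha and 2 integrin beta genes. Of these, 19 had more than 3 counts over the libraries of some arm. COL28A1 had 9 (DMSO), 10 (GDC), 5 (GSK) and 43 (COMBO) counts, a ratio of pooled counts of 6.18 in COMBO (95% counting interval 2.97 to 14.4). COL9A1 and COL20A1 had 0 counts in DMSO and 11 and 8 in COMBO, at least 4.74-fold and 3.45-fold higher than the limit that 3 counts over the DMSO libraries set. COL11A1 had 1, 0, 5 and 16 counts, ITGA8 had 4, 5, 8 and 17, and LAMA2 had 10, 1, 10 and 17 in the order DMSO, GDC, GSK and COMBO. ITGAD had 14, 3, 13 and 21 counts and ITGAL 11, 9, 4 and 11. The counts of COL10A1, COL14A1, COL22A1, COL5A3, COL6A6, ITGAM and LAMB4 were at most 8 in any arm. The remaining 10 (COL15A1, COL19A1, COL1A2, COL21A1, COL25A1, COL6A5, COL8A1, ITGA4, ITGAX and ITGB3) had 3 counts or fewer in every arm, and COL21A1 had 0 in all libraries, so a change was not detectable at this depth.

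These comparisons share libraries: COMBO and both single agents were set against the same DMSO libraries, and the same COMBO libraries against both single agents.

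Other genes of the same pathway were counted in lists chosen by function, beside shares of all tested genes called higher and lower of 40.0% and 35.7% in GSK and 43.3% and 39.2% in COMBO. Of 9 tested integrin ligands and collagen receptors, 8 rose in GSK and 7 in COMBO, with 0 lower. THBS1, the matrix glycoprotein thrombospondin, rose from 80.1, 87.1 and 84.1 CPM in DMSO to 893, 808 and 905 in GSK and reached 991 ± 43.7 in COMBO (SD, n = 3). Its log2 fold change there was 3.56 (SE 0.066 with adjusted p = 9.40e-20), and TNC, the matrix protein tenascin, rose by 3.65. Of 9 tested basement membrane and anchoring proteins, 7 rose and 1 fell in GSK, and 8 rose and 1 fell in COMBO. NTN4, a laminin-related netrin, rose by 3.81 in COMBO and FRAS1, an extracellular matrix protein of epithelial basement membranes, by 3.02, while DAG1, the dystroglycan that binds laminin, fell by 0.47. Collagen making enzymes divided, with 15 of 25 higher and 6 lower in GSK and 15 higher and 9 lower in COMBO. LOXL2, a lysyl oxidase that cross-links collagen, rose by 2.30 and ADAMTS2, a procollagen peptidase, by 2.29, whereas ADAMTS3 fell by 1.07 and PCOLCE2 by 1.04. Of 29 tested genes of integrin adhesion and signalling, 19 rose and 7 fell in GSK, and 18 rose and 8 fell in COMBO. TNS3, a tensin, rose by 1.77 and LIMS2, an adaptor of the integrin-linked kinase complex, by 1.68, while FERMT1, a kindlin that activates integrins, fell by 1.92 (63.7 ± 1.68 CPM in DMSO, 17.0 ± 0.815 in COMBO) and KANK2 by 0.90. In GDC the higher and lower counts of these lists, in the order given, were 4 and 0, 2 and 0, 3 and 6, and 8 and 3, where 20.0% of all tested genes were called in each direction.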

How the data were processed

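PolyA RNA was sequenced from 12 libraries of C4.2B cells. The authors aligned the reads to hg38 with STAR and counted them per gene with HTSeq, and the deposited values used here are these raw counts per gene in each library. Tool versions, annotation and strand setting are not given in the sources used here. The deposited table of normalized values was not used. Summary lines that name no gene, 23.7% to 33.7% of each file, were left out. Counts were scaled by TMM, filtered with filterByExpr and fitted over 14189 genes in edgeR 4.0.16 (R 4.3.3) with the quasi-likelihood test, 1 coefficient per arm and Benjamini-Hochberg adjustment, two-sided, and the script was tested on simulated data. Levels per kilobase use GENCODE 44 exons. Genes at 0 have a limit of 3 counts, and 95% intervals of count ratios are exact, and both cover counting error only.

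The members and lists were chosen with earlier results of these data known. Named members were the 3 most abundant of each family, the 4 most extreme non-overlapping calls in each direction and comparison, the 3 largest interactions and chains of the same assembly; others are named where a count of them is given. The values of 1 untested member are not reported here. Same-letter libraries did not deviate together (correlations -0.084 to 0.19). Alternatives were other scalings, DESeq2 1.42.0, other filters, compared arms only, a replicate block and leaving out each library. The set of members above the level cut in DMSO was added after the data were seen.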

Additional observations from a re-analysis of the deposited data

Results flagged for a closer look

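In 10 members the change in COMBO differed from the sum of the changes in GDC and GSK by the test of the interaction (edgeR quasi-likelihood test, n = 3 per arm), in each case below the sum. Of all tested genes 16.5% were called in that direction. In both integrin beta chains COMBO was near or above GSK although each single agent gave a higher level than DMSO, with interactions of -1.41 for ITGB2 (adjusted p = 0.00156) and -0.76 for ITGB4 (adjusted p = 0.0320). Among collagens it was -1.24 for COL13A1 (adjusted p = 0.00422), -0.74 for COL9A2 (adjusted p = 0.00428) and -0.44 for COL12A1 (adjusted p = 0.0183). COL9A2 stood near the same level in the 3 inhibitor arms, at 8.35 ± 1.09 CPM (GDC), 7.89 ± 0.459 (GSK) and 8.28 ± 0.254 (COMBO). Among laminins it was -1.19 for LAMA1 (adjusted p = 0.0332), -0.53 for LAMC3 (adjusted p = 0.00175) and -0.49 for LAMB1 (adjusted p = 0.000548). Among integrin alpha chains it was -0.41 for ITGAE (adjusted p = 0.0119), where each single agent was also lower than DMSO, and -0.33 for ITGA3 (adjusted p = 0.0481).

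The calls of ITGB2, COL13A1, COL9A2, LAMC3 and LAMB1 held under each alternative that was run. The others were lost in some, which were 17 of 18 for ITGA3, 9 of 18 for ITGB4, 9 of 17 for LAMA1, 7 of 18 for ITGAE and 6 of 18 for COL12A1.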

How the results depend on the processing

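Of 312 results on the tested members, 244 kept their side of the threshold in every alternative. Of these, 204 also kept their direction and 40, none of which was called, changed sign in at least 1 alternative. Of 5793 recomputed values 179 lost the call, 112 gained it and 2 changed sign with a call on 1 of the sides. Both of these came with library totals, LAMC3 in COMBO against DMSO (0.17, adjusted p = 0.0470) and ITGA2 in COMBO against GDC (0.014, adjusted p = 0.853). Library totals also left 0 members lower in GDC and 0 in GSK, and 8 related genes lower in GSK, and raised the share of higher calls among all genes from 50.0% to 58.5% in GDC, from 52.8% to 64.0% in GSK, from 52.5% to 63.3% in COMBO, from 49.9% to 62.8% in COMBO against GDC and from 41.4% to 52.3% in COMBO against GSK. DESeq2 size factors in edgeR raised it from 22.7% to 35.2% in the interaction. With DESeq2 size factors, DESeq2, no filter or a mean of at least 1 CPM, 2 members were lower in GDC, and 14 (DESeq2 size factors) or 15 (no filter) related genes were. With no filter 1 member, COL18A1, was above the sum in the interaction (0.48, adjusted p = 0.0256), and so it was without COMBO B (0.57). The causes were not tested.

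Leaving out 1 library gave 12 to 18 members higher and 0 to 2 lower in GDC, 39 to 45 and 2 in GSK, and 42 to 46 and 2 to 3 in COMBO. The counts were 35 to 41 and 3 to 5 in COMBO against GDC, 12 to 20 and 3 to 5 in COMBO against GSK, and 0 to 1 and 5 to 10 in the interaction. Related genes were 11 to 18 higher and 8 to 13 lower in GDC, 44 to 49 and 14 to 15 in GSK, and 45 to 48 and 17 to 18 in COMBO. The labels do not say what the replicate letters stand for, and the letters were not shown to pair libraries across arms. With the replicate block, members higher and lower in the arms against DMSO numbered 18 and 1 (GDC), 44 and 2 (GSK) and 45 and 2 (COMBO). COMBO against GDC gave 37 and 4, COMBO against GSK 16 and 4, and the interaction 0 and 10. With 8785218 gene counts in the shallowest library, members under about 0.341 CPM were at or below 3 counts there.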

Other observations

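EMID2, listed by RefSeq under the symbol COL26A1, is a collagen gene that the choice by symbol did not take. It stood at 10.5, 11.2 and 10.8 CPM (DMSO), 13.4, 10.6 and 12.9 (GDC), 30.2, 21.1 and 22.8 (GSK) and 22.3, 19.5 and 21.3 (COMBO). GSK and COMBO libraries were all above DMSO, with log2 fold changes of 1.17 (SE 0.12, edgeR adjusted p = 1.92e-08) and 0.95 (SE 0.11, adjusted p = 1.59e-07), whereas GDC overlapped DMSO (0.17, adjusted p = 0.289).

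Of the other markers, 1 of 4 endothelial genes was tested (VWF). The summed level of the 4 was 2.74 to 3.25 CPM in DMSO, 4.56 to 7.07 in GDC, 5.76 to 6.26 in GSK and 4.93 to 5.64 in COMBO. VWF was called higher in GDC, GSK and COMBO (0.87, 0.90 and 0.76, edgeR adjusted p = 0.000179, 4.77e-05 and 0.000125). PECAM1, CDH5 and KDR were at or under 3 counts in each library. Of 5 neuroendocrine markers 2 were tested (SYP and NCAM1). The summed level of the 5 was 2.10 to 2.63 CPM in DMSO, 1.94 to 2.83 in GDC, 3.16 to 3.96 in GSK and 3.19 to 3.51 in COMBO. NCAM1 was called higher in GSK (1.38, edgeR adjusted p = 0.00829), where its libraries overlapped DMSO, and in COMBO (1.81, adjusted p = 0.000186). SYP was called in no arm.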
